A study of Homo sapiens with 3 samples.

Results

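The heat shock chaperones of the cytosol and of mitochondria were measured through HSF1, HSPA1A, HSPA8, HSPA9, HSP90AA1, HSP90AB1, HSPD1, HSPE1, HSPB1 and DNAJB1. They were chosen by name, though with earlier results of these data known. Each gene was found through the RefSeq transcript that the array file assigns to a probe. These 10 genes, of 19736 gene symbols named on the array, were covered by 16 probes on 34 spots. Huh7, an established human hepatoma cell line, was cultured in serum-supplemented medium and left untreated or exposed for 24 h to 50 μM or 100 μM chlorogenic acid (CA), a polyphenol made by plants. The label of the untreated sample gives its treatment as none, whereas the study's methods name the solvent DMSO as the reference for untreated groups in general. CA-treated cells were detached with trypsin and taken up in medium without serum before total RNA was extracted. The sources used here do not say whether untreated cells were handled in the same way. RNA was labelled with Cy3 and hybridised to a whole-genome Agilent array, with 1 array per group, so that no difference reported here has a replicate check and no p-value is given.

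Heat shock proteins are molecular chaperones that bind unfolded or partly folded proteins and help them to fold, to move between compartments or to be degraded. HSF1 is the transcription factor that is held inactive by chaperones, and during proteotoxic stress it forms trimers and binds heat shock elements, which are repeated nGAAn units in alternating orientation. HSP70 proteins work in cycles of ATP hydrolysis that J proteins start and exchange factors end, HSP90 proteins act later on signalling proteins, and the chaperonin of HSPD1 with its lid HSPE1 folds proteins inside mitochondria. In hepatoma cells several of these genes are abundantly expressed without any heat stress.

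The heat shock elements of the promoters are shown first because HSF1 acts on its target genes through elements of this kind. Those printed below are matches of sequence, and whether HSF1 acts through any of them was not tested. The windows were those of RefSeq on GRCh38.p14, from 250 bases before to 50 bases after each annotated gene start. The motifs searched were GAANNTTC and TTCNNGAA, each of 2 units and each its own reverse complement, and GAANNTTCNNGAA and TTCNNGAANNTTC, each of 3 units, which are reverse complements of each other and contain both shorter motifs. For each gene the longest match is printed 5′ to 3′ on the strand of the gene with flanking bases, and the capitals mark the element.
HSPA8, chr11:123062172-123062198, minus strand: gggccccTTCTGGAAGGTTCtaagata
HSP90AA1, chr14:102087113-102087139, minus strand: agggttcTTCCGGAAGGTTCgggaggc
HSP90AB1, chr6:44247824-44247850, plus strand: gagattgTTCTGGAAGCTTCtggattc
HSPD1, chr2:197500063-197500090, minus strand: gcattTTCTGGAAAGTTCTGGAAccgag
HSPA1A, chr6:31815427-31815454, plus strand: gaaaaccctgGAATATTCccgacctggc
HSPA9, chr5:138575388-138575415, minus strand: ggttggaggtTTCCAGAAgcgctgccgc
HSPB1, chr7:76302481-76302508, plus strand: cttaacgagaGAAGGTTCcagatgaggg
DNAJB1, chr19:14518427-14518454, minus strand: gcgggctctgGAAGCTTCcgccggacgg

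The first 4 of these sequences hold an element of 3 or more units, and the other 4 hold an element of 2 units. The printed elements began 55 bases before the annotated start in HSPA8, 88 in HSP90AA1, 112 in HSP90AB1, 245 in HSPD1, 106 in HSPA1A, 4 in HSPA9, 182 in HSPB1 and 47 in DNAJB1. HSPD1 carried the longest run, of 18 bases. HSPA8 and HSP90AB1 each had 2 matches of 3 units, of which 1 is printed. HSP90AA1 and HSPD1 each had 2 annotated windows, HSP90AB1 and DNAJB1 each had 3, and the printed element lies in 1 of them. No match was found in the windows of HSPE1, and HSF1 was not searched. An element of HSPE1 outside its windows would have been missed, so the lack of a match does not show that the gene has none. HSPE1 shares a bidirectional promoter with HSPD1, and where the printed HSPD1 element lies relative to the HSPE1 start was not tested. Of 27305 genes with a window, 16.2% held a motif of 2 units and 0.608% one of 3 units, against 8 and 4 of the 9 member genes searched. A match is a description of the letters and not evidence that HSF1 was bound.

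No member moved by as much as 2-fold in any comparison. Of the 16 probes, 15 were well above background on all 3 arrays, and 0 of these 15 differed at least 2-fold between 50 μM CA and untreated, where 1.07% of 22471 probes did. Likewise 0 of 15 differed at least 2-fold between 100 μM CA and untreated, where 0.894% of 22267 probes did. Between 100 μM CA and 50 μM CA the count was again 0 of 15, with 0.855% of 22453 probes. A count of 0 in 15 probes is close to these background shares and is no result about the members. Both doses were set against the same untreated array, so a high or low spot there enters both comparisons.

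The level used below is the log2 processed signal minus the 75th percentile of that array, and each difference between 2 arrays is a log2 ratio of such levels. The 75th percentiles were 1058.8 on the untreated array, 1207.4 at 50 μM CA and 1248.8 at 100 μM CA, so an unscaled signal of a gene with equal levels would still be higher on the CA arrays. The standard error (SE) quoted is that of the scanner software's error model, which does not cover the variation between cultures. It was 0.20 for the log2 ratio of every bright member probe, whether printed on 1 spot or 10. For these probes it is therefore a fixed width and not an estimate from their spots. Probes printed 10 times on each array gave an SD between spots of the ratio of 0.065 at 50 μM CA and 0.064 at 100 μM CA (median of 814 and 810 probes). No member spot was saturated or lay in a disturbed area of an array, although such areas held 5.71% of the spots on the 100 μM CA array. As RNA came from whole cultures, fewer cells expressing a gene and less RNA of it per cell cannot be told apart. Of 9 hepatocyte markers, 7 were well above background on all 3 arrays, and their summed signal was 347 times the 75th percentile in untreated cells, 309 times at 50 μM CA and 283 times at 100 μM CA. Of these 7 markers, 5 had a lower level than in untreated cells at 50 μM CA and 6 at 100 μM CA. Of 12 markers of blood, endothelial and stromal cells, 10 were called well above background on all 3 arrays, but their summed signal was only 1.60, 1.88 and 1.61 times the 75th percentile. The part of these shifts in the results below was not tested.

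**Figure D1:**
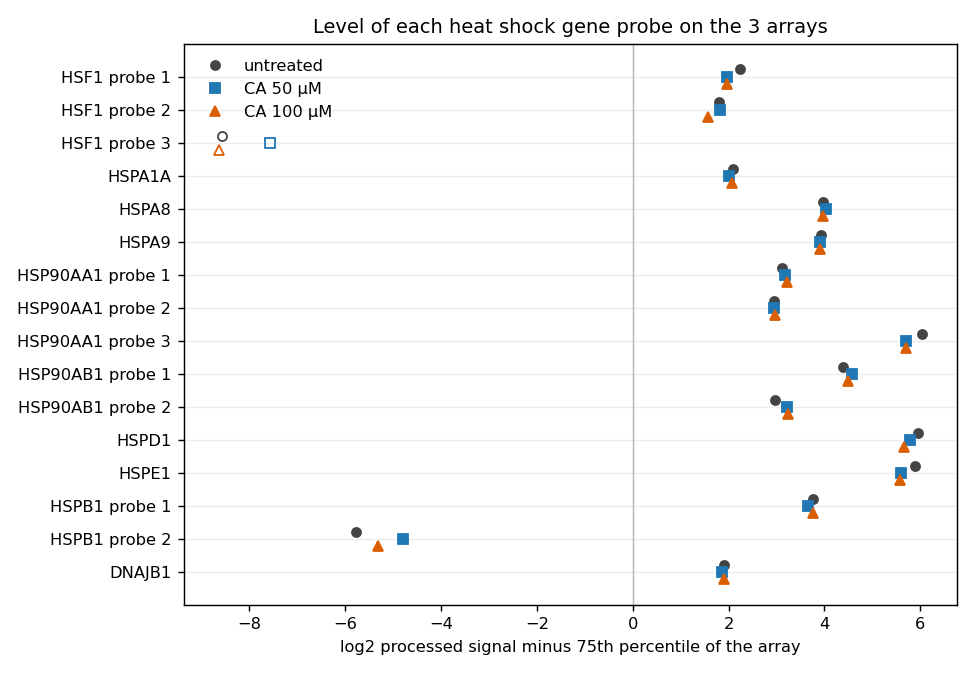
Level of every probe (rows, numbered within a gene in the order of the text) on the untreated array (circles), at 50 μM CA (squares) and at 100 μM CA (triangles), as log2 processed signal minus the 75th percentile of the array; open symbols mark spots not well above background. The 3 symbols of a row lie close together except for the dim probes HSF1 probe 3 and HSPB1 probe 2, and rows are different probes whose levels cannot be set against each other.

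HSF1, the master transcription factor of the response, had a lower level at 100 μM CA than in untreated cells on both of its measured probes. The first, A_23_P253841, read a signal of 4971 in untreated cells, 4708 at 50 μM CA and 4903 at 100 μM CA. Its log2 ratio to the untreated array was -0.27 at 50 μM CA and -0.26 at 100 μM CA, each with an SE of 0.20. The untreated array was the high one, and the CA arrays nearly coincided at levels of 1.96 and 1.97.

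The second HSF1 probe, A_33_P3347932, read 3716 in untreated cells, 4264 at 50 μM CA and 3691 at 100 μM CA. Its log2 ratio was 0.01 at 50 μM CA and -0.25 at 100 μM CA. Thus the probes disagreed at 50 μM CA, where only the first was below the untreated array, and were alike at 100 μM CA. Both lay below the 10th percentile of equally bright probes at 100 μM CA, which was -0.20. The third HSF1 probe, A_33_P3347937, read between 2.77 and 6.39 and was not well above background on any array.

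HSPA1A, the major stress-inducible HSP70 of the cytosol, is the most direct readout of a heat shock response among these genes. Its level was nearly flat after 24 h of CA, the only time sampled, so a change at earlier times would not be seen. Its probe A_23_P111132 was printed 10 times and read a mean signal of 4495 in untreated cells, 4879 at 50 μM CA and 5246 at 100 μM CA. The level was 2.09 ± 0.018 in untreated cells (SD, 9 spots), 2.01 ± 0.051 at 50 μM CA (SD, 9 spots) and 2.07 ± 0.018 at 100 μM CA (SD, 8 spots). The spots of the 3 arrays overlapped.

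At 50 μM CA the log2 ratio of HSPA1A was -0.07 with an SD of 0.040 over 8 spots measured on both arrays, and 0 of the 8 were higher than in untreated cells. At 100 μM CA it was -0.02 with an SD of 0.028 over 8 spots, 2 of which were higher. These spots share 1 RNA sample per group, so their spread is technical. The gene shares nearly all of its sequence with HSPA1B, and the probe sequences are not in the files used here, so that signal from the paralog cannot be separated. The probe assigned to HSPA1B, A_33_P3415430, read 1847, 2516 and 2389 and had a log2 ratio of 0.26 at 50 μM CA and 0.13 at 100 μM CA.

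HSPA8, the constitutive HSP70 of the cytosol, was measured by 1 probe, A_33_P3390758, assigned to the shorter of its main transcripts. It read 16632 in untreated cells, 19670 at 50 μM CA and 19666 at 100 μM CA. After scaling the levels were 3.97, 4.03 and 3.98, and the log2 ratios to untreated were 0.05 and 0.0036. DNAJB1, the J protein that is induced with HSPA1A by heat, read 3945.5, 4385.5 and 4655 in untreated cells, at 50 μM CA and at 100 μM CA. Its log2 ratios were -0.04 and 0.0003, so that the 3 levels lay within 0.037 of each other. HSPB1, a small heat shock protein that holds unfolded proteins without ATP, gave different answers on its probes.

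The bright HSPB1 probe, A_33_P3287646, read 14389 in untreated cells, 15138 at 50 μM CA and 16995 at 100 μM CA. Its log2 ratio was -0.12 at 50 μM CA and 0.0020 at 100 μM CA. The dim probe, A_33_P3353242, read 19.4, 43.7 and 31.3 on the same arrays, near the lowest signals called well above background, which were 12.2, 12.5 and 14.8. Its log2 ratio was 0.98 at 50 μM CA, with an SE of 0.30, and 0.45 at 100 μM CA, with an SE of 0.32. With another background correction (normexp on the median spot signal) these values were 0.22 and 0.0087. The dim probe was the only one of the 15 to lie beyond 2 SE of 0 at 50 μM CA.

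**Figure D2:**
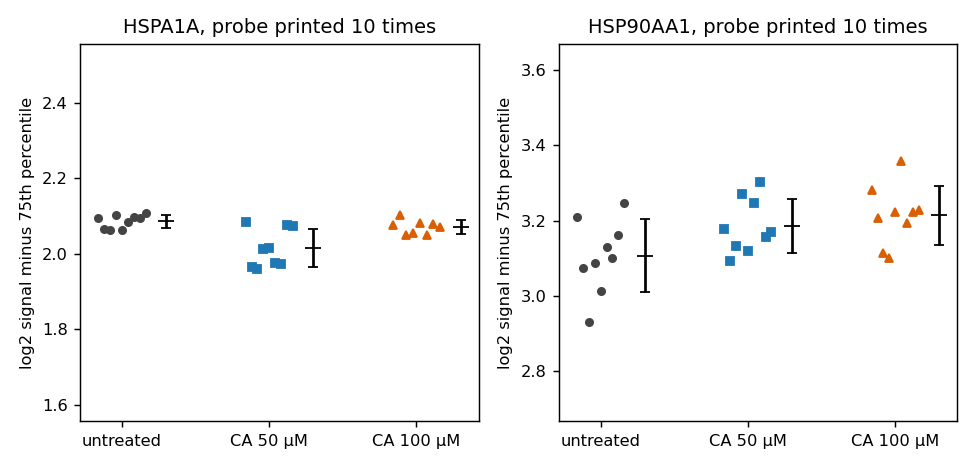
Each point is 1 of the spots kept for the HSPA1A probe (left) and for HSP90AA1 probe 1 (right), both printed 10 times, as log2 signal minus the 75th percentile of the array; the bar beside each column is the mean ± SD over spots. HSPA1A means lay between 2.01 and 2.09 and HSP90AA1 means between 3.11 and 3.21, with overlapping spots in both panels.

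Of the cytosolic HSP90 genes, HSP90AB1 was above the untreated array on both of its probes at both doses, whereas the probes of HSP90AA1 disagreed. HSP90AB1 encodes the constitutive HSP90 beta. Its probe A_23_P145089 read 22205 in untreated cells, 28805 at 50 μM CA and 28041 at 100 μM CA, with log2 ratios of 0.19 and 0.10. Its probe A_24_P823684 read 8331, 11303 and 11754, with log2 ratios of 0.25 and 0.26. The untreated array was the lowest on both probes. Each of these 4 ratios was within 2 SE of 0 and above the 90th percentile of equally bright probes, which was 0.10 and 0.03 for the first probe at 50 μM CA and 100 μM CA and 0.16 and 0.09 for the second.

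HSP90AA1 encodes the stress-inducible HSP90 alpha and had 3 probes that did not move together. Probe 1, A_23_P162874, printed 10 times, read a mean of 9118 in untreated cells, 10984 at 50 μM CA and 11588 at 100 μM CA. Its log2 ratio was 0.08 with an SD of 0.11 over 9 spots at 50 μM CA, where 6 spots were higher than untreated, and 0.11 with an SD of 0.086 over 9 spots at 100 μM CA, where 8 were higher. The spots of the 3 arrays overlapped.

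Probe 2 of HSP90AA1, A_32_P199252, read 8146, 9330 and 9850, with log2 ratios of 0.0062 and 0.04. Probe 3, A_33_P3665777, read 69811, 62824 and 65099, with log2 ratios of -0.34 at either dose. It was therefore high in untreated cells, whereas the levels of the other probes of the gene were lowest there. Its spot at 50 μM CA carried a flag for uneven local background. HSPA8, HSP90AA1, HSP90AB1, HSPD1 and HSPE1 all have processed pseudogenes, and whether a probe also reads these is not known from the files used here.

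**Figure D3:**
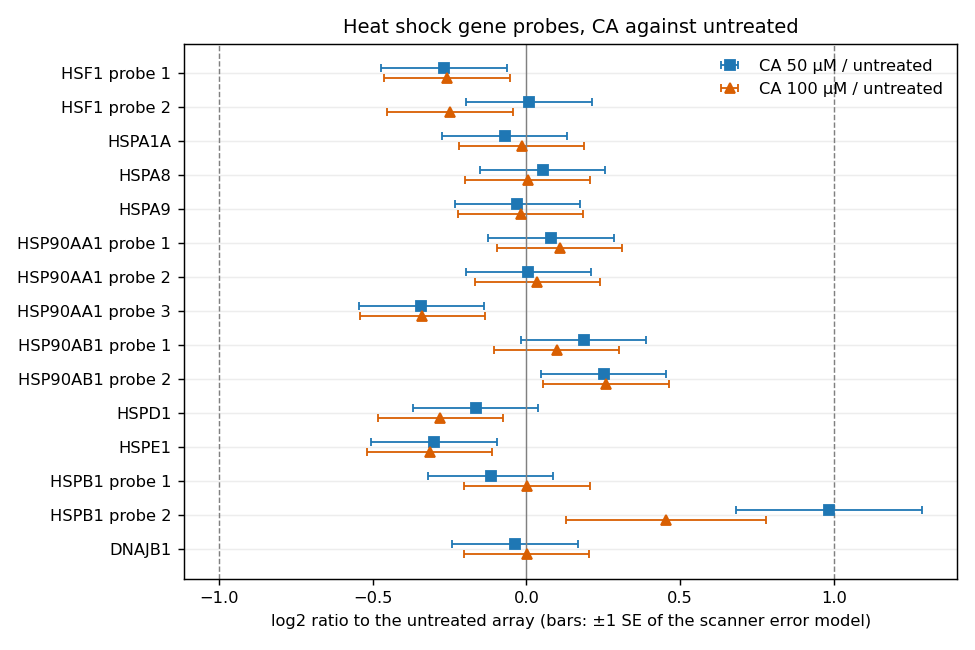
Log2 ratio of the 15 measured probes (rows) at 50 μM CA (squares) and 100 μM CA (triangles) to the shared untreated array; bars are ±1 SE of the scanner error model, and dashed lines mark 2-fold. All points lie inside the dashed lines, and only the dim HSPB1 probe 2, at 0.98, comes near one.

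Of the mitochondrial chaperones, HSPE1 was below the untreated array at both doses, HSPD1 too except at 50 μM CA under quantile or cyclic loess normalization and in the deposited log2 table, where its sign turned, and HSPA9 was nearly level. HSPD1, the HSP60 subunit of the folding cage, read 65417 in untreated cells, 66520 at 50 μM CA and 63522 at 100 μM CA on probe A_32_P25273. Its log2 ratio was -0.17 and -0.28. HSPE1, the HSP10 lid that closes the cage and shares a bidirectional promoter with HSPD1, read 63136, 58440 and 59862 on probe A_23_P56922, with log2 ratios of -0.30 and -0.31. HSPA9, the mitochondrial HSP70 that pulls imported proteins into the matrix, read 16130, 18021 and 18780 on probe A_24_P77676, with log2 ratios of -0.03 and -0.02. The order of the arrays was untreated, 50 μM CA, 100 μM CA from high to low for HSPD1 and HSPE1, though the CA arrays of HSPE1 differed by only 0.01, and every step in it was below 2 SE.

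How bright a probe was went along with its ratio over the whole array. In the brightest of 20 signal classes the median log2 ratio of all probes was -0.16 at 50 μM CA and -0.11 at 100 μM CA, whereas over all measured probes it was -0.01 and -0.02. HSPD1, HSPE1 and HSP90AA1 probe 3 belong to that class and lay at or below its median at both doses, HSPD1 at 50 μM CA by less than 0.01. HSPA8, HSPA9, HSP90AB1 probe 1 and the bright HSPB1 probe belong to it as well and lay above its median at both doses, so the members did not share 1 direction there. HSPD1 and HSPE1 lay between its 10th and 90th percentiles at both doses, that is from -0.34 to 0.10 at 50 μM CA and from -0.33 to 0.03 at 100 μM CA, and HSP90AA1 probe 3 lay just below the lower limit. In the log2 table deposited by the authors the ratios of HSPD1 were 0.08 and -0.02, those of HSPE1 -0.06 and -0.08 and those of HSP90AA1 probe 3 at 100 μM CA -0.07. The part of brightness in the differences of these 3 probes was not tested.

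**Figure D4:**
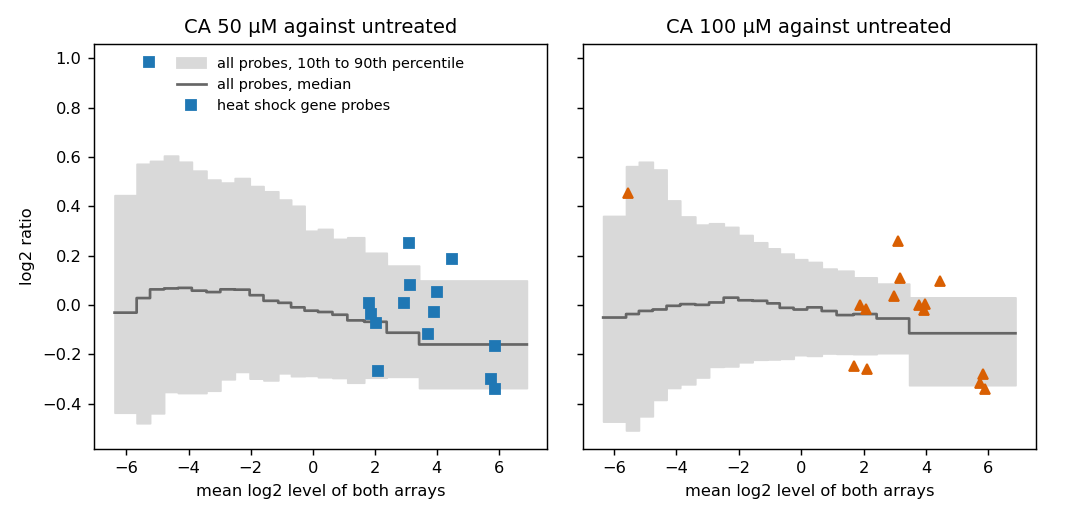
Log2 ratio to untreated against the mean log2 level of both arrays, for the 15 measured heat shock probes (symbols) over the median (line) and the 10th to 90th percentile (grey) of all probes in 20 classes of equal size. The line falls to -0.16 at 50 μM CA and -0.11 at 100 μM CA in the brightest class, where HSPD1, HSPE1 and HSP90AA1 probe 3 lie at the lower edge or inside the grey band and the other 4 members of that class lie above the line.

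Counted over all members, 11 of 15 probes at 50 μM CA and 9 of 15 at 100 μM CA were inside the 10th to 90th percentile of equally bright probes, a band that leaves out 20% of all probes by its construction. Outside it at 50 μM CA were both HSP90AB1 probes and the dim HSPB1 probe above and HSP90AA1 probe 3 below. At 100 μM CA these were both HSP90AB1 probes and HSP90AA1 probe 1 above, and HSF1 probes 1 and 2 and HSP90AA1 probe 3 below. With the brightest probe standing for each gene, the median log2 ratio of the 10 genes was -0.09 at 50 μM CA and -0.02 at 100 μM CA, against -0.04 and -0.03 over all genes measured. Between 100 μM CA and 50 μM CA it was 0.0062, against 0.0020. Going from 50 μM CA to 100 μM CA, the probes differed by log2 ratios between -0.53, for the dim HSPB1 probe, and 0.12, for the bright one, and 15 of 15 were within 2 SE of 0.

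The member with the largest mean size of its ratios over both doses was HSP90AA1, through its brightest probe, at 0.34. That is probe 3, which was flagged at 50 μM CA. The other probes of the gene went the other way, with 0.08 and 0.11 and with 0.0062 and 0.04. The genes whose pair of ratios lay nearest to that of probe 3 were ZNF878, ZNF334, AS3MT, RPLP2 and ALPK3. Their distances were 0.0053, 0.0057, 0.0085, 0.0097 and 0.013 on the log2 scale. They rest on 3 arrays, and 91 of 14543 genes lay within 0.05, so the likeness is a weak one.

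The wider chaperone network was read from 10 lists of 142 genes, of which 137 were on the array and 128 were measured at either dose. At 50 μM CA 1 of 128 genes differed at least 2-fold, where 0.98% of 14697 genes differed that far. At 100 μM CA 0 of 128 differed at least 2-fold, where 0.663% of 14637 genes did. Between the doses the count was 0 of 129, with 0.675% of 14663 genes. The single gene was HYOU1, an HSP110-type chaperone of the endoplasmic reticulum, which read 296 in untreated cells, 691 at 50 μM CA and 479.6 at 100 μM CA, with log2 ratios of 1.03 and 0.46. Under the other settings tried its ratio at 50 μM CA went down to 0.84, below 2-fold. Not counted were probes well above background on only 1 array of a comparison, for which bounds can be given. DNAJB8, a J protein with no other probe, read 2.59 in untreated cells and 56.2 at 100 μM CA, from a spot in a disturbed area. This was at least 3.90-fold higher, and at least 4.33-fold above 50 μM CA. A dim probe of DNAJB2, another J protein, read 12.1, 30.0 and 24.5, at least 2.15-fold and 1.70-fold above untreated. The brighter DNAJB2 probe had log2 ratios of -0.23 and -0.24.

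HSP90 and its co-chaperones had list medians above 0 at both doses. Over 19 genes the median was 0.13 at 50 μM CA and 0.10 at 100 μM CA, with 14 genes above 0 and 5 below at each dose. Over all genes measured, 6426 were above 0 and 8271 below at 50 μM CA, and 6197 above and 8440 below at 100 μM CA. STIP1, the adaptor that hands clients from HSP70 to HSP90, read 735, 1390 and 1227 on its brighter probe, with log2 ratios of 0.73 and 0.50. Its other probe read 458, 770.1 and 689, with ratios of 0.56 and 0.35, so that both probes had their lowest signal in untreated cells.

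PPP5C, a phosphatase that binds HSP90, read 49.1, 108 and 80.7, with log2 ratios of 0.95 and 0.48, which with normexp were 0.51 and 0.23. AHSA1, the activator of the HSP90 ATPase, read 1848, 2334 and 2351, with ratios of 0.15 and 0.11, and 1 of its 10 spots at 100 μM CA lay in a disturbed area. The probes of FKBP4, an immunophilin of HSP90, had opposite signs, at -0.17 and -0.07 for the brighter one and 0.49 and 0.17 for the other. CHORDC1, another HSP90 partner, had -0.02 and -0.13 on its brighter probe and -0.27 and 0.0071 on the other. STIP1 and AHSA1 are also heat-inducible genes, and that list is described next.

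The heat-inducible genes, 30 measured at either dose, had medians of -0.02 and 0.0030, against -0.04 and -0.03 over all genes. At 50 μM CA 14 were above 0 and 16 below, where 6426 of all genes were above and 8271 below. At 100 μM CA 18 were above and 12 below, where 6197 of all genes were above and 8440 below. HSPH1, the HSP110 of the cytosol and a sensitive heat shock target, read 10017, 11305 and 11925 on its brighter probe, with log2 ratios of -0.01 and 0.01. HSPA6, an HSP70 with little expression outside of stress, read 83.4, 93.6 and 77.3, with ratios of -0.02 and -0.35, and its other probe was not well above background on any array. BAG3, an exchange factor that directs clients to autophagy, read 171, 247 and 259.6, with ratios of 0.34 and 0.36. DNAJA1, a cytosolic J protein, had ratios of 0.06 and 0.15. ATF3, a stress-induced transcription factor, had 4 probes, of which one read 427, 752 and 518, with ratios of 0.63 and 0.04, and another 505, 499.4 and 591, with -0.21 and -0.01. The other ATF3 probes were also below 0 at 50 μM CA, at -0.22 and -0.17, and the mean over its probes was 0.0064 there. BAG3, on 1 spot per array, and DNAJA1 were therefore above the untreated array at either dose, and HSPH1 was level. STIP1, described above, had the largest ratios of this list at either dose.

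HSP70 and HSP110 genes, 13 measured, had medians of -0.02 at both doses. At their high end HSPA1L, a testis-type HSP70 with a dim probe, had ratios of 0.39 and 0.34, which with normexp were 0.09 and 0.06. At the low end HSPA4, an HSP110-type exchange factor, had -0.26 and -0.11 on its brighter probe and -0.08 and 0.0010 on the other. The dim probe of HSPA12B had -0.34 and 0.19, the latter turning to -0.14 with normexp. The co-chaperones of HSP70, 8 measured, had medians of 0.01 and 0.02. In the latter list BAG4 stood lowest with ratios of -0.80 and -0.36 on its brighter probe and 0.10 at both doses on the other. SGTA, which binds HSP70 and HSP90, stood highest at 50 μM CA with ratios of 0.46 and 0.13. ST13, which stabilises HSP70 with a bound client, had -0.06 and -0.08 on its brightest probe. Its other probes had either sign, for example 0.13 and 0.06 on A_23_P68949 and -0.13 and -0.02 on A_32_P167791. The J proteins of cytosol and nucleus, 23 measured, had a median of -0.13 at 50 μM CA and of 0.0003 at 100 μM CA. At 50 μM CA 5 of them were above 0 and 18 below, where 6426 of all genes were above and 8271 below. DNAJA4, a J protein, was the lowest of them, with dim signals of 38.3, 23.4 and 31.8 and ratios of -0.90 and -0.50, the former -0.39 with normexp. DNAJC18 followed with -0.59 and -0.35, while DNAJC17 had 0.32 and 0.18 and DNAJC7 had 0.22 and 0.06.

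Small heat shock proteins were mostly near background, with 5 of 9 on the array measured and medians of 0.12 and 0.0020. HSPB6 had ratios of 0.49 and 0.15, and CRYAB, the alpha-B crystallin, had 0.14 and 0.42, the latter from a spot in a disturbed area. With normexp the values of CRYAB were -0.13 and 0.08. CRYAA, the alpha-A crystallin, and HSPB9 had 0.12 and 0.09 at 50 μM CA, which turned to -0.05 and -0.0077 with normexp, and -0.11 and -0.08 at 100 μM CA. HSPB8, which works with BAG3, was too dim to pass the background call in untreated cells, at 9.52, and read 25.8 at 50 μM CA and 19.0 at 100 μM CA, which is at least 1.85-fold and at least 1.32-fold higher. These bounds compare the scaled signal with the lowest signal well above background on the untreated array, which was 12.2. HSPB8 was read from 1 spot per array. No bound was formed with normexp, so how far the bounds depend on background correction was not tested. The 5 measured heat shock factors and partners had medians of -0.11 and -0.07. HSF2, which can pair with HSF1, had ratios of -0.18 and -0.13. HSF4, a factor known from the lens, had 0.46 and -0.0014, and HSF2BP, a binding partner of HSF2, had -0.07 and 0.52 on a dim probe, the latter turning to -0.05 with normexp.

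The mitochondrial chaperones and proteases, 19 measured, had medians of 0.07 and -0.0082, so the low ratios of HSPD1 and HSPE1 were not shared by the list. TIMM44, which ties HSPA9 to the import channel, read 152, 336 and 253, with log2 ratios of 0.95 and 0.50, the latter 0.27 with normexp. LONP1, a protease of the matrix, read 336, 571 and 451, with ratios of 0.57 and 0.19. TRAP1, the HSP90 of mitochondria, had ratios of 0.44 and 0.27. DNAJC15, a J protein of the inner membrane, was lowest at 50 μM CA with -0.33 and had -0.08 at 100 μM CA, the latter from a spot in a disturbed area. None of these probes was in the brightest signal class.

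Chaperonin and prefoldin subunits of the cytosol, 15 measured, had medians of -0.03 and -0.04. The highest at 50 μM CA were PFDN6 and CCT7, with 0.36 and 0.18, and the lowest were CCT6B and CCT4, with -0.38 and -0.23. The dimmer CCT4 probe had -0.05 at 50 μM CA. At 100 μM CA the highest were VBP1 and PFDN2, with 0.14 each, and the lowest CCT6A and CCT6B, with -0.26 and -0.16. The endoplasmic reticulum chaperones, 16 measured, had medians of -0.11 and -0.0033. HSPA5, the HSP70 of that compartment, had ratios of -0.27 and -0.07, and the calcium-binding chaperone CALR had -0.31 and -0.41. HSP90B1, the HSP90 of that compartment, had -0.28 and -0.24 on its brighter probe and 0.16 and 0.11 on the other. The disulphide isomerase PDIA4 had 0.37 and 0.23, the latter from a spot in a disturbed area. The lectin chaperone CANX had 0.15 and 0.41 on its brighter probe and -0.0012 and 0.06 on the other. HYOU1 thus stood at the other end of its own list.

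**Figure D5:**
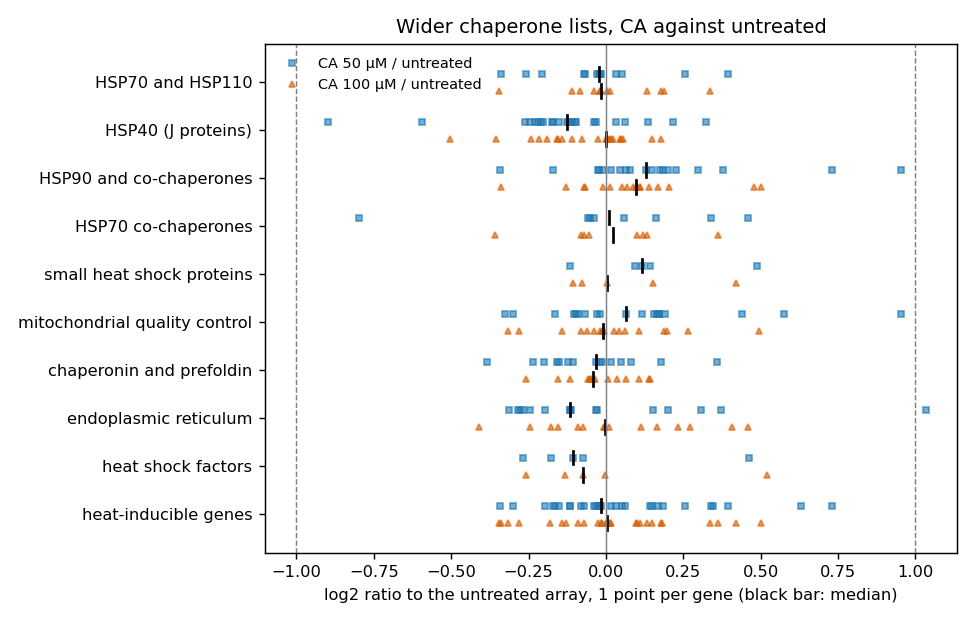
Log2 ratio to untreated of each measured gene in 10 chaperone lists (rows) at 50 μM CA (squares) and 100 μM CA (triangles); black bars are list medians and dashed lines mark 2-fold. Medians lie between -0.13 and 0.13, and only HYOU1 at 50 μM CA passes a dashed line.

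Genes that carry an element of 3 units in a promoter window were compared with those that do not. Only exact units inside the window were counted, so HSPA1A, HSPA9, HSPB1, DNAJB1 and HSPE1 fell into the group without it. At 50 μM CA 62 measured genes with the element had a median log2 ratio of -0.03 and 0 of them differed at least 2-fold, against -0.04 and 0.903% of 11630 genes without it. At 100 μM CA 63 genes with the element had a median of -0.03 and again 0 differed at least 2-fold, against -0.03 and 0.518% of 11594 genes without it. HSPA8, HSP90AA1, HSP90AB1 and HSPD1, whose elements are printed above, are among the genes with the element. Counts of 0 in 62 and 63 genes are close to the shares without it and are no result about the element.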

How the data were processed

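Total RNA of Huh7 cells was labelled with Cy3 and hybridised to 3 Agilent arrays of 1 slide, 1 per group; groups followed the treatment labels. The authors extracted the deposited intensity values with Feature Extraction 11.0.1.1, which subtracts background and removes spatial trends but does not scale arrays. They also deposited a log2 table of the same arrays, whose columns share their quartiles; how it was made is not given in the sources used here, and it served as an alternative.

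Control spots and outlier-flagged spots were left out, log2 processed signals were centred on each array's 75th percentile, and spots of a probe were averaged. A probe counted as measured if both arrays of a comparison called it well above background, and the brightest probe stood for a gene in lists. Of 34127 probes, 75.5% were named through RefSeq. At least 2-fold counted as changed. With 1 array per group nothing was tested, and the number of arrays limits the precision. Steps were tested on simulated data. Tools were Python 3.11.15, pandas 2.3.3 and R 4.3.3 with limma 3.58.1. The members and lists were chosen with earlier results of these data known. Named were all members with every probe, and from each list genes changed 2-fold or with the 2 highest or 2 lowest ratios at a dose. AHSA1, HSPH1, HSPA5, HSPB8 and further probes of named genes were added for their known roles after their values were seen. DNAJB2 and DNAJB8 were added for their bounds, also after their values were seen.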

Additional observations from a re-analysis of the deposited data

How the results depend on the processing

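10 alternative settings were planned and 1, which left out spots with a background flag, was chosen after seeing the data. The median ratio of the member genes at 50 μM CA, -0.09 as reported, was -0.0049 with quantile normalization, 0.010 with cyclic loess and -0.0001 in the deposited log2 table; the cause was not tested. Without the filter on dim probes, 1 member probe changed at least 2-fold at 50 μM CA against untreated and 1 at 100 μM CA against 50 μM CA, which was the HSF1 probe that is not well above background. Otherwise the count of members changed 2-fold remained 0. Signs were less stable: over the settings, 7 of 15 member probes changed sign at 50 μM CA and 5 of 15 at 100 μM CA, and so did the medians of 5 and 7 of 10 lists. Of 45 other chaperone genes named, leaving aside DNAJB2, DNAJB8 and HSPB8, 8 and 10 changed sign. The ratios of both HSP90AB1 probes stayed above 0 (0.06 to 0.35), as did the median of HSP90 and its co-chaperones. No paired analysis was possible because each group had 1 array, and none could be left out.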
